A study of Mus musculus with 36 samples.

Results

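The keratin clusters hold the genes of the intermediate filament proteins of epithelial cells, and they were examined here without the keratins of simple duct epithelium. Members were the protein-coding genes of GENCODE vM21 on mm10 whose symbol is Krt followed by digits only, leaving out Krt7, Krt8, Krt18 and Krt19. This gave 45 of 21951 protein-coding genes, 24 type I genes on chromosome 11 and 21 type II genes on chromosome 15. The rule uses symbols only, and it was chosen with earlier results of these data known. The clusters were taken from the first to the last keratin gene, chr11:99232761-100269871 and chr15:101347444-102032027.

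ChIP-Seq, in which an antibody pulls down chromatin with a given histone modification and the attached DNA is sequenced, was performed by the authors for K27me3 and K4me3 on whole pancreatic tissue, 22 days after tamoxifen gavage at 2 to 4 months of age. The 6 mice used here were 3 control and 3 Ezh2ΔSET mice. Control mice are labelled Wildtype, and the study describes its controls as C57BL/6 mice or mice with the Mist1creERT allele alone. Ezh2ΔSET mice carry Mist1creERT/+ and are homozygous for an Ezh2 allele whose SET domain, the part of the protein that methylates histones, is deleted on recombination. All mice received tamoxifen. Recombination is driven from the Mist1 locus in acinar cells, while the tissue also holds duct, islet, immune and connective tissue cells, so fewer cells with a mark and less of the mark per cell cannot be told apart. The peak files used here give the positions of the peaks of each mouse without heights or read counts, so the depth behind them is unknown.

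K27me3 is laid down by Polycomb repressive complex 2, of which EZH2 is the catalytic subunit, and is linked to gene repression, whereas K4me3 marks the start sites of active genes and CpG-rich DNA. Keratins assemble as pairs of a type I and a type II protein. Krt5 and Krt14 are the pair of basal cells in stratified epithelium, Krt1 and Krt10 that of differentiating epidermis, Krt4 and Krt13 that of mucosa, and most other members are used in hair or skin appendages, so that few of them are active in healthy acinar tissue.

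The start sites of most members lie in CpG-poor DNA. Of the 45 members, 32 matched a RefSeq promoter (GRCm38.p6) of 300 bases, and these held 2 to 11 CpGs (median 4.5) against a median of 14 over 16538 matched protein-coding genes. An observed-to-expected CpG ratio of at least 0.6 was reached by 1 of the 32 (3.13%), Krt28, and by 50.2% of all matched promoters. The bases before the RefSeq start are shown for Krt14 and Krt72, the only members called for K27me3 in 2 mice, for Krt5, which had neither mark in any mouse, and for Krt23, which had K4me3 at its start in 6 of 6 mice. All lie on the minus strand, each run is 5′ to 3′ and ends just before the start, capitals mark CpGs, and the 17 bases of Krt23 that fall in the GENCODE first exon are left out. The RefSeq start of Krt14 lies inside the longer GENCODE gene. The runs are chr11:100206031-100206280, chr15:101786521-101786770, chr15:101712906-101713155 and chr11:99493138-99493370, in that order.
Krt14: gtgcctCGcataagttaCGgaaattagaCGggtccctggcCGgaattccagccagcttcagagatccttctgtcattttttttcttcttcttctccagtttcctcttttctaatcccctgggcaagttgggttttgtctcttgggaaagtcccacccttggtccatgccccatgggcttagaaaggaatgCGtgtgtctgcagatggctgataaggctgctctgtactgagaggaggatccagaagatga
Krt72: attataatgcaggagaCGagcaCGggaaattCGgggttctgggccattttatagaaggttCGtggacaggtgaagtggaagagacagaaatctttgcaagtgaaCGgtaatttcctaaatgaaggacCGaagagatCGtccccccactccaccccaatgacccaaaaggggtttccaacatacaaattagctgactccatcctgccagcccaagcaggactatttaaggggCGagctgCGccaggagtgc
Krt5: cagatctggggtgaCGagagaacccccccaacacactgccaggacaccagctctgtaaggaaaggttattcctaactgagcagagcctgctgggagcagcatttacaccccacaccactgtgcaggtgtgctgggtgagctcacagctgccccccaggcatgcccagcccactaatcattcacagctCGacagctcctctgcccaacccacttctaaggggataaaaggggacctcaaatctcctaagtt
Krt23: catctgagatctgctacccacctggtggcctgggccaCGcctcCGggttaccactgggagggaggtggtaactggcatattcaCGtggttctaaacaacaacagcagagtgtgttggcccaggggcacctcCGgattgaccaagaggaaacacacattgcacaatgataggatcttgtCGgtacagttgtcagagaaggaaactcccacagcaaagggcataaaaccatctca
The number of CpGs is 5 for Krt14, 9 for Krt72, 2 for Krt5 and 5 for Krt23, so that Krt23, with K4me3 in 6 mice, and Krt14, with K4me3 in none, hold equally many. TATAAA, the core of the TATA box, was found on either strand in 17 of the 32 member promoters (53.1%) and in 12.9% of all promoters, and the members with it include Krt10, Krt12, Krt20, Krt72 and Krt73. GCCNNNGGC, an AP-2 type motif, was found in 5 of 32 (15.6%) against 20.3%, and TGANTCA, the AP-1 motif, in 1 of 32 (3.13%, Krt13) against 7.00%. Both of these motifs were also read on both strands.

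The marker genes of acinar cells used to check the tissue had a K4me3 peak within 3 kb of a start site in 6 of 6 mice for 11 of 11 genes. Duct markers called for K4me3 were 3 to 6 of 6 per mouse, islet markers 1 to 2 of 6 and fibroblast markers 2 to 3 of 4. Control replicate 2 stood apart from the other 5 mice. It had the fewest peaks for both marks (21420 for K27me3 and 17400 for K4me3), and 11.7% of its autosomal K27me3 peaks overlapped a K4me3 peak, against 0.693% to 1.97% in the other 5. K27me3 peaks lay at 24.6% of all protein-coding genes in this mouse and at 10.6% to 15.6% in the others. It was the only mouse with K27me3 at any of the acinar markers (4 of 11). Of 4 immune markers (Ptprc, Cd3e, Adgre1 and Spi1), 3 had K4me3 in control replicate 2 and 0 or 1 in the other 5 mice. On the X chromosome, which holds no member, K27me3 peaks numbered 17 in Ezh2ΔSET replicate 2, against 5637 to 7367 in the other 5 mice, and shares over all genes include these X-linked genes. The part of these differences in the results was not tested, and results are given with and without control replicate 2.

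K4me3 was rare at these genes, and its calls overlapped between genotypes. A member was called for a mark in a mouse when a peak of that mouse reached within 3 kb of any annotated start site of the gene. K4me3 called 6, 4 and 6 members in the control mice and 4, 5 and 5 in Ezh2ΔSET. The lowest control mouse, replicate 2, equalled the lowest Ezh2ΔSET mouse. These are 8.89% to 13.3% of the 45 members, against 60.4% to 62.6% of all protein-coding genes in the same mice. Over the 6 mice, 39 of 45 members had no K4me3 peak in any mouse, against 34.1% of all genes, and 4 members (8.89%) had it in all 6, against 57.4% of all genes. By role, the 13 hair shaft and the 7 inner root sheath keratins had K4me3 in no mouse, and the 6 members with any were 2 of 10 epidermal or basal, 1 of 5 mucosal or corneal and 3 of 9 other epithelial keratins.

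**Figure D1:**
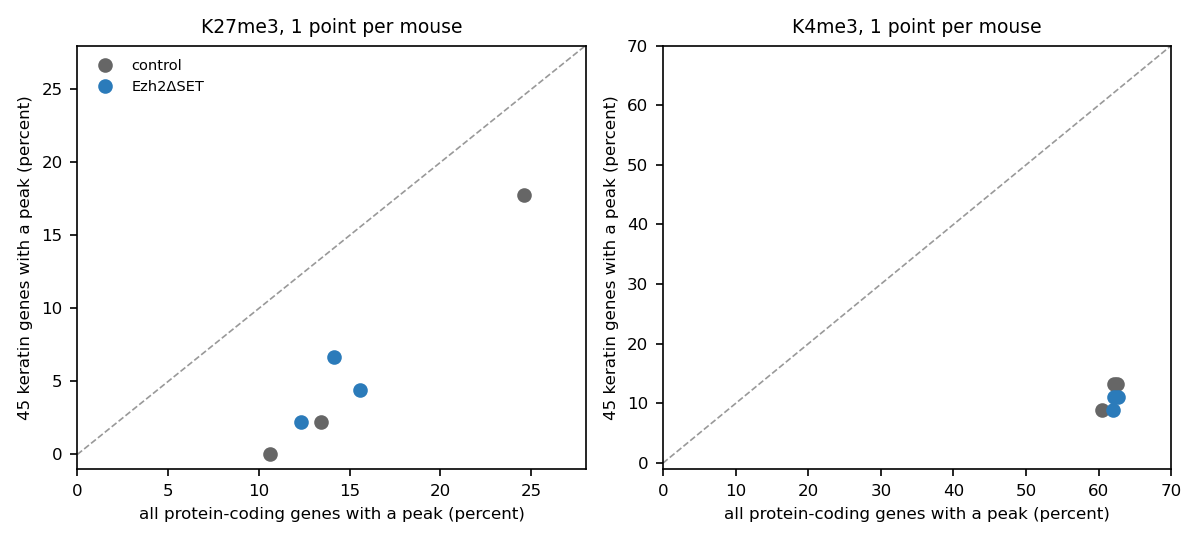
Percent of the 45 keratin genes with a peak within 3 kb of a start site (y) against the percent of all protein-coding genes with a peak (x), 1 point per mouse, control in grey and Ezh2ΔSET in blue, K27me3 left and K4me3 right; the dashed line marks equal shares. All 6 mice lie below the line for both marks, and the rightmost grey point for K27me3, at 17.8% of the keratin genes, is control replicate 2.

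The 4 members with K4me3 in 6 of 6 mice were Krt23, Krt10, Krt1 and Krt79. Krt23, a type I keratin of simple epithelia, carried the peak at its own start in every mouse, and its regions joined over mice to chr11:99488258-99494133. At the other 3 genes the peak lay over the 3′ part of the gene, and at Krt10 and Krt79 it ran past the 3′ end. At Krt1 and Krt79 the call came from annotated start sites other than the outermost 5′ end. The peaks common to the mice lay 2306 bases from the outermost 5′ end of Krt10, 4527 bases from that of Krt1 and 10392 bases from that of Krt79. When the outermost 5′ end alone was used with a window of 1 kb, Krt23 kept its 6 of 6 and Krt10, Krt1 and Krt79 had 0 of 6. With 1 kb around any annotated start site, 5, 3 and 5 members were called in control and 4, 4 and 4 in Ezh2ΔSET. Krt10, Krt1 and Krt79 thus all stayed called in every mouse but control replicate 2, by annotated starts other than the outermost. Krt77, an epidermal keratin whose last exon carried a K4me3 peak in 6 of 6 mice at 9491 bases from the 5′ end, had no annotated start nearby and was called in no mouse. Peaks inside Krt25, away from its exons, and over exons 8 and 9 of Krt86 were each present in 5 of 6 mice, all but control replicate 2, and likewise reached no start site.

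The coding DNA under the K4me3 peaks of Krt1, Krt10, Krt77 and Krt79 is rich in CpG. The K4me3 stretch inside Krt25, away from its exons, held 2.13 CpGs per 100 bases and that of Krt86 held 5.19. The whole clusters held 0.978 on chromosome 11 and 1.09 on chromosome 15. The sequences shown are the coding part of the K4me3 stretch in the last exon (exon 9) of Krt1 (chr15:101845935-101846234, the middle 300 bases), Krt77 (chr15:101859859-101860103) and Krt79 (chr15:101929726-101929928), and the 200 coding bases of Krt10 with the most CpGs (chr11:99386058-99386257). All lie on the minus strand of GRCm38, are written 5′ to 3′ in gene direction, and have CpGs in capitals.
Krt1: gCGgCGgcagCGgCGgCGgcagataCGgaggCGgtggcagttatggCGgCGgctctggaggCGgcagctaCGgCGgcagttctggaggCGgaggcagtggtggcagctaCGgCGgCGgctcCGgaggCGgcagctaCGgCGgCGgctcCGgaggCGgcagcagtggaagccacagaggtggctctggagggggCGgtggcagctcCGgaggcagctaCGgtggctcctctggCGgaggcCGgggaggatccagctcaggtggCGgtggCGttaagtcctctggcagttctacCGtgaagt
Krt77: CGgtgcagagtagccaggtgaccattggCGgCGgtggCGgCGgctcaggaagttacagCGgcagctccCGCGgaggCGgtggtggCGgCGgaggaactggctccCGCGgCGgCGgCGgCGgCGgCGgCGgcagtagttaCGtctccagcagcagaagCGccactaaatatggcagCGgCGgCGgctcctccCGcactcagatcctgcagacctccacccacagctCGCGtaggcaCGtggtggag
Krt79: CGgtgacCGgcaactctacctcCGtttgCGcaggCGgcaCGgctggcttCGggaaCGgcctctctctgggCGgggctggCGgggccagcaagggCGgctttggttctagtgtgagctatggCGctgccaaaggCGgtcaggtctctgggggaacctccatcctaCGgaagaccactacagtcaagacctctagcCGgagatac
Krt10: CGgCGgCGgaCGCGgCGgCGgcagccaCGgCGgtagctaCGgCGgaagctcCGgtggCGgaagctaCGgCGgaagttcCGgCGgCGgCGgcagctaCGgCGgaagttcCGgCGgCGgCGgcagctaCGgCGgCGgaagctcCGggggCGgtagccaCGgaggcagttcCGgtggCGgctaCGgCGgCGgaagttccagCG
They hold 31 CpGs in 300 bases for Krt1, 29 in 245 for Krt77, 15 in 203 for Krt79 and 37 in 200 for Krt10, and the GC content was 71.7%, 70.2%, 64.0% and 76.5%. For each of the 45 members, the 200 coding bases with the most CpGs were then found. Krt10 ranked first with 37, Krt77 next with 26 and Krt1 after it with 25, and these 3 carried a K4me3 peak over that window in 6 of 6 mice, as did Krt79, which ranked 8 with 15 CpGs. Over the other 41 members, with no K4me3 peak on their densest window in any mouse, the number ran from 6 to 19 (median 10), and the highest of these was Krt87. The comparison was chosen after the peaks had been seen and is a description without a test. The observed-to-expected CpG ratio over the K4me3 stretch shared by 6 mice was 0.792 at Krt10, 0.734 at Krt1, 0.632 at Krt77 and 0.447 at Krt79. At start sites it was 0.320 for Krt23 and, among the duct keratins, 0.476 for Krt19, 0.481 for Krt8, 0.459 for Krt18 and, in 5 mice, 0.680 for Krt7. Krt79 was thus below each of the 4 duct keratins. Over the 13 K4me3 stretches of at least 5 mice whose regions overlapped no start site, the ratio ran from 0.150 to 0.734 (median 0.369). These 13 include Krt1 and Krt79, whose peaks lie within 3 kb of an annotated start. Over the same bases of DNA sequence, the clusters are given for comparison. The ratio was 0.201 over the whole chromosome 11 cluster and 0.187 over that of chromosome 15.

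**Figure D2:**
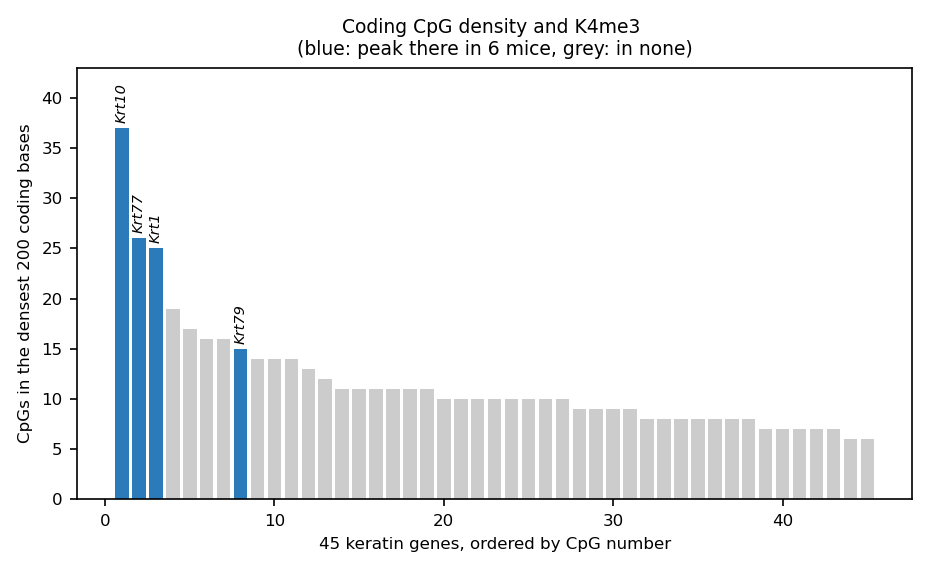
Number of CpGs in the most CpG-dense 200 coding bases (y) of each of the 45 keratin genes, ordered by that number (x); blue bars have a K4me3 peak over that window in 6 of 6 mice and grey bars in none. The 3 tallest bars, Krt10, Krt77 and Krt1, are blue, as is Krt79.

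In the whole clusters, 27 separate K4me3 regions were formed by joining the peaks of the 6 mice, and 19 of them were present in at least 5 mice. Of these 19, 6 overlapped an annotated start site (those of Krt10, Krt23 and the 4 duct keratins) and 13 overlapped none. The regions of Krt1 and Krt79 are among the 13, since they lie within 3 kb of an annotated start without overlapping it. The duct keratins left out of the list had K4me3 in 6 mice for Krt8, Krt18 and Krt19 and in 5, all but control replicate 2, for Krt7. The 23 keratin-associated protein genes between Krt40 and Krt33a, which encode the matrix proteins of hair, had K4me3 in no mouse, and their stretch of 468 kb held no K4me3 peak in 6 of 6 mice.

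K4me3 covered 1.92%, 0.626% and 2.03% of both clusters in the control mice and 1.98%, 1.98% and 1.82% in Ezh2ΔSET. The lowest value was that of control replicate 2 and the groups overlapped. The means were 1.52% ± 0.780 (SD, n = 3) for control and 1.93% ± 0.0923 (SD, n = 3) for Ezh2ΔSET, a difference of 0.402 percentage points (two-sided exact permutation p = 0.7, adjusted 1 over the 3 tests of coverage). Leaving out control replicate 2 gave -0.0477 points (exact permutation p = 0.7).

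K4me3 at a pair of further members differed between mice. Krt4, a mucosal keratin, was called in control replicates 1 and 3 and Ezh2ΔSET replicates 2 and 3. Its peak lay between Krt4 and Krt79, joined over mice to chr15:101926737-101927529, and within 1 kb of the 5′ end of Krt4 there was none. Krt80, a type II keratin of simple and stratified epithelia, was called in control replicates 1 and 3 only, within 1 kb of its 5′ end. The same 2 mice were the only ones with K4me3 at the mesothelial marker Wt1, which had K27me3 in 6 of 6 mice. Of the other mesothelial markers, Lrrn4 had K4me3 in 6 of 6 mice, and Msln and Upk3b had it in none. Mesothelial markers called for K4me3 were thus 2 of 4 in control replicates 1 and 3 and 1 of 4 in the other 4 mice. The part of mesothelium in the Krt80 calls was not tested.

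No member had K4me3 in every mouse of a genotype and no mouse of the other. Across all genes this happened for 0.0729% (higher in Ezh2ΔSET) and 0.0364% (lower). When control replicate 2 was left out, Krt80 was the only member called, lower in Ezh2ΔSET with 0 of 3 against 2 of 2 mice, beside 0.182% of all genes, and no member was higher, beside 0.137% of all genes. The Krt80 call rests on 2 control mice and did not exist with 3. For a single gene the design cannot give a two-sided exact p below 0.1.

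**Figure D3:**
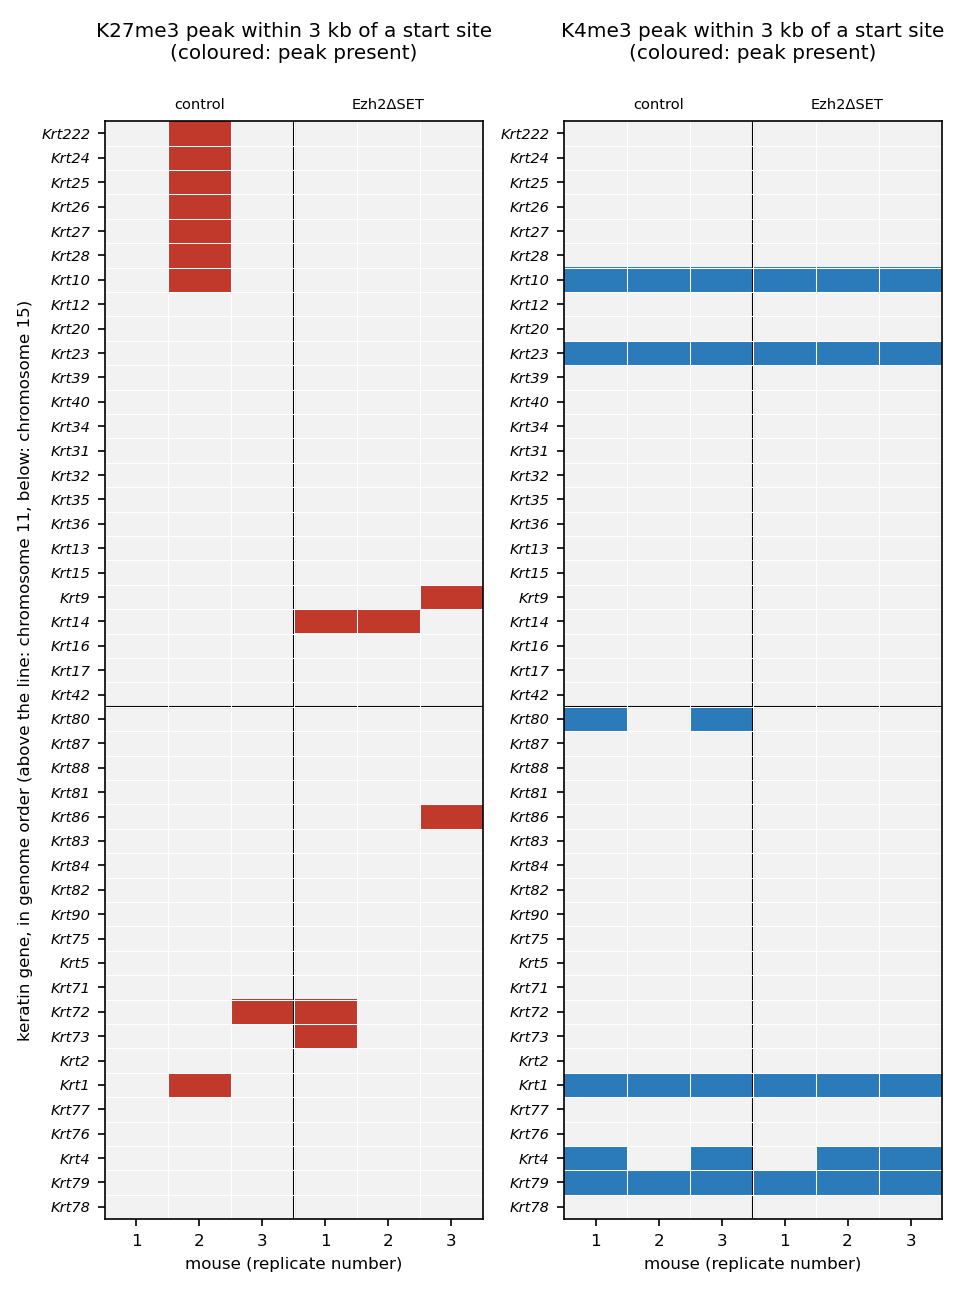
Peak calls within 3 kb of a start site for each of the 45 keratin genes (rows, genome order) in each mouse (columns, by genotype and replicate), K27me3 in red on the left and K4me3 in blue on the right. Krt10, Krt23, Krt1 and Krt79 are blue in 6 of 6 mice, the run from Krt222 to Krt10 is red in control replicate 2 alone, and no gene is red in more than 2 mice.

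K27me3 was sparse over these genes and varied between mice. It called 0, 8 and 1 members in the control mice and 3, 1 and 2 in Ezh2ΔSET. As a mean this was 3.00 ± 4.36 (SD, n = 3) and 2.00 ± 1.00 (SD, n = 3) members, and the groups overlapped. Without control replicate 2 the control mice had 0 and 1, at or below every Ezh2ΔSET mouse. Since the count is over chosen genes it was not tested. In percent of the 45 members these are 0%, 17.8% and 2.22% in control and 6.67%, 2.22% and 4.44% in Ezh2ΔSET, beside 10.6%, 24.6% and 13.4% and 14.1%, 12.3% and 15.6% of all genes in the same mice. Each of the 6 mice thus had K27me3 at a smaller share of these keratins than of all genes.

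Of the 45 members, 32 (71.1%) had K27me3 in no mouse and none had it in 6, against 66.7% and 3.6% of all genes. Leaving out control replicate 2, 5 of 45 (11.1%) were called in at least 1 of the other 5 mice, beside 21.7% of all genes. Counts by role were not tested against each other, and 33.3% of all genes had K27me3 in at least 1 mouse. Mucosal and corneal keratins were called in no mouse (0 of 5, Krt4, Krt12, Krt13, Krt76 and Krt78). Inner root sheath keratins, which line the growing hair, were called for 6 of 7, of which 4 were called in control replicate 2 alone. Epidermal and basal keratins were called for 4 of 10, of which Krt10 and Krt1 were called in control replicate 2 alone. Hair shaft keratins were called for 1 of 13, and other members of simple or mixed epithelia for 2 of 9, both in control replicate 2 alone. Without that mouse the counts were 2 of 7 inner root sheath, 2 of 10 epidermal or basal, 1 of 13 hair shaft and 0 of 9 other epithelial keratins.

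The 8 members called in control replicate 2 were Krt222, Krt24, Krt25, Krt26, Krt27, Krt28, Krt10 and Krt1, and none of these was called in another mouse. The first 7 are neighbours on chromosome 11, and a single peak of 21936 bases, the widest K27me3 peak of the clusters, covered the 5′ ends of Krt26 and Krt27. Krt10 and Krt1, the pair of differentiating epidermis, were called for both marks in this mouse, and they were the only members with both marks in any mouse.

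In the other 5 mice K27me3 was called at 5 members, none of which was called in control replicate 2. Krt14, the type I keratin of basal cells, was called in Ezh2ΔSET replicates 1 and 2, and in no control mouse. The share of all genes with such a pattern was not computed. Its peaks were 5001 bases wide in both mice, the smallest width in the lists, and they lay 1199 and 1972 bases from the outermost 5′ end, joined to chr11:100200576-100206349. Krt72, an inner root sheath keratin, was called in control replicate 3, with a peak of 8868 bases that lay 835 bases from the 5′ end, and in Ezh2ΔSET replicate 1, with a peak of 5001 bases over the 5′ end. Krt73, its neighbour, was called in Ezh2ΔSET replicate 1 alone, with a peak of 5001 bases over the 5′ end. Krt9, a keratin of palm and sole epidermis, and Krt86, a hair shaft keratin, were called in Ezh2ΔSET replicate 3 alone, with peaks at 1603 and 1138 bases from the 5′ end. With a window of 1 kb and any start site, the calls of Ezh2ΔSET replicate 3 fell to 0 and those of the other 2 Ezh2ΔSET mice stayed at 3 and 1.

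No member had K27me3 in 3 of 3 mice of a genotype and 0 of 3 of the other. Across all genes this happened for 0.196% (higher in Ezh2ΔSET) and 0.00911% (lower). Without control replicate 2 again no member was called, beside 0.633% of all genes higher and 0.21% lower. Krt5, Krt15, Krt16 and Krt17, the keratins of basal and activated keratinocytes, Krt12 of the cornea, Krt13 of mucosa and Krt20 of gut and urothelium were among the 28 members with neither mark in any mouse.

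**Figure D4:**
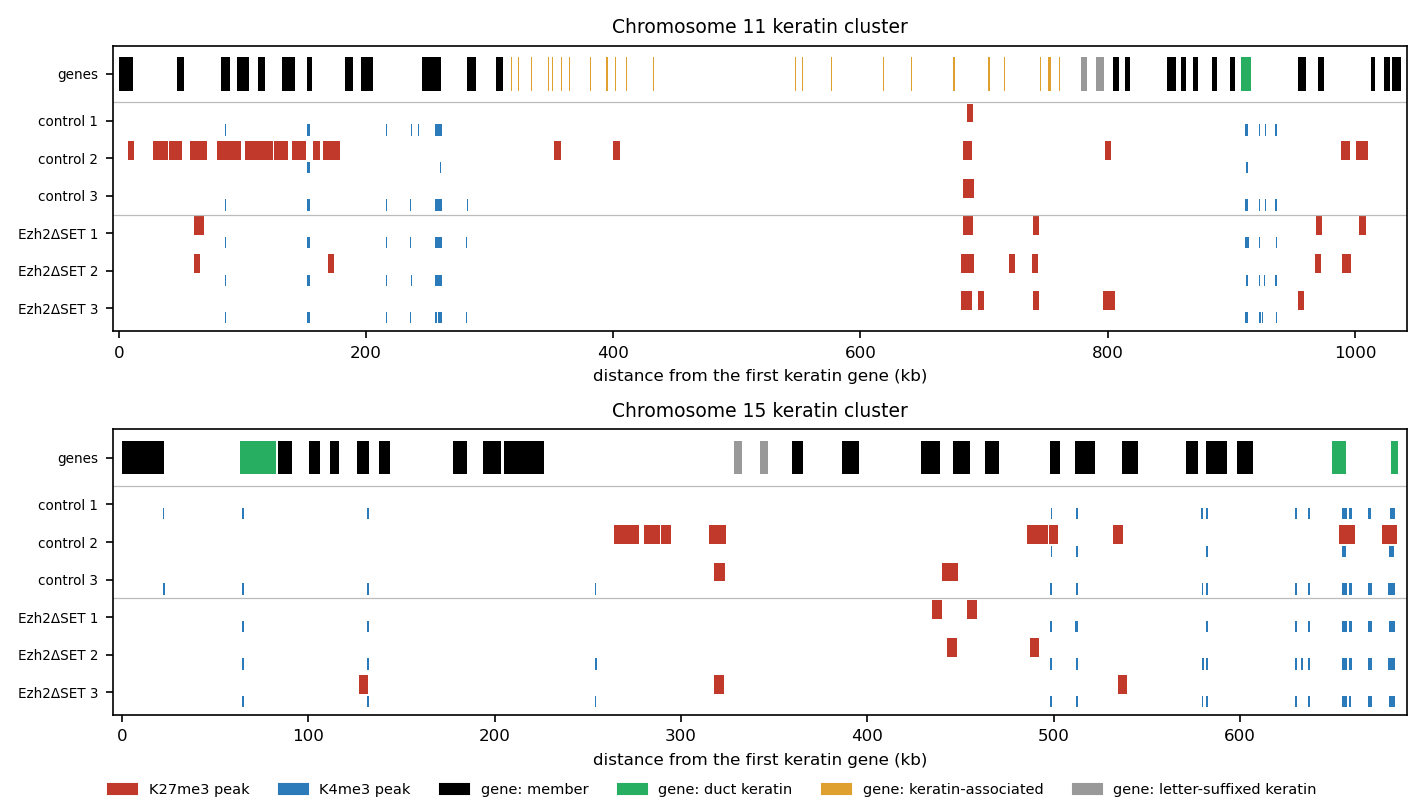
Peaks of every mouse (rows) along the chromosome 11 cluster (top) and the chromosome 15 cluster (bottom), in kb from the first keratin gene, K27me3 in red and K4me3 in blue, with genes drawn to scale in the top row of each panel. Control replicate 2 carries a long run of red at the left of the upper panel that no other mouse has, while the stretch chr11:99918903-99922840 in the upper panel is red in 6 of 6 mice.

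K27me3 covered 0.482%, 15.8% and 0.894% of the chromosome 11 cluster in the control mice and 3.01%, 4.13% and 3.19% in Ezh2ΔSET. The control mice held both the lowest values and the highest, and the Ezh2ΔSET mice lay between them. The means were 5.74% ± 8.76 (SD, n = 3) for control and 3.44% ± 0.599 (SD, n = 3) for Ezh2ΔSET, a difference of -2.30 percentage points (two-sided exact permutation p = 1, adjusted 1). Without control replicate 2 the difference was 2.75 points, and each Ezh2ΔSET mouse was above both control mice. The exact permutation p was then 0.1, the smallest that 3 mice against 2 can give. Over all autosomes K27me3 covered 6.79%, 6.06% and 7.14% in control and 7.37%, 9.16% and 7.41% in Ezh2ΔSET. Each Ezh2ΔSET mouse was thus above every control mouse there too. The ratio of cluster to autosomal coverage was 0.0710, 2.62 and 0.125 in control and 0.409, 0.451 and 0.430 in Ezh2ΔSET.

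K27me3 covered 0%, 10.8% and 2.21% of the chromosome 15 cluster in the control mice and 1.46%, 1.46% and 2.19% in Ezh2ΔSET. Here too control replicate 2 was highest. The means were 4.32% ± 5.68 (SD, n = 3) for control and 1.70% ± 0.422 (SD, n = 3) for Ezh2ΔSET, which differed by -2.62 points (two-sided exact permutation p = 0.7, adjusted 1), and 0.60 points without control replicate 2 (exact permutation p = 0.9). None of the 3 differences in coverage was larger than the spread between mice, and with 3 mice against 3 the exact permutation p cannot fall below 0.1.

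**Figure D5:**
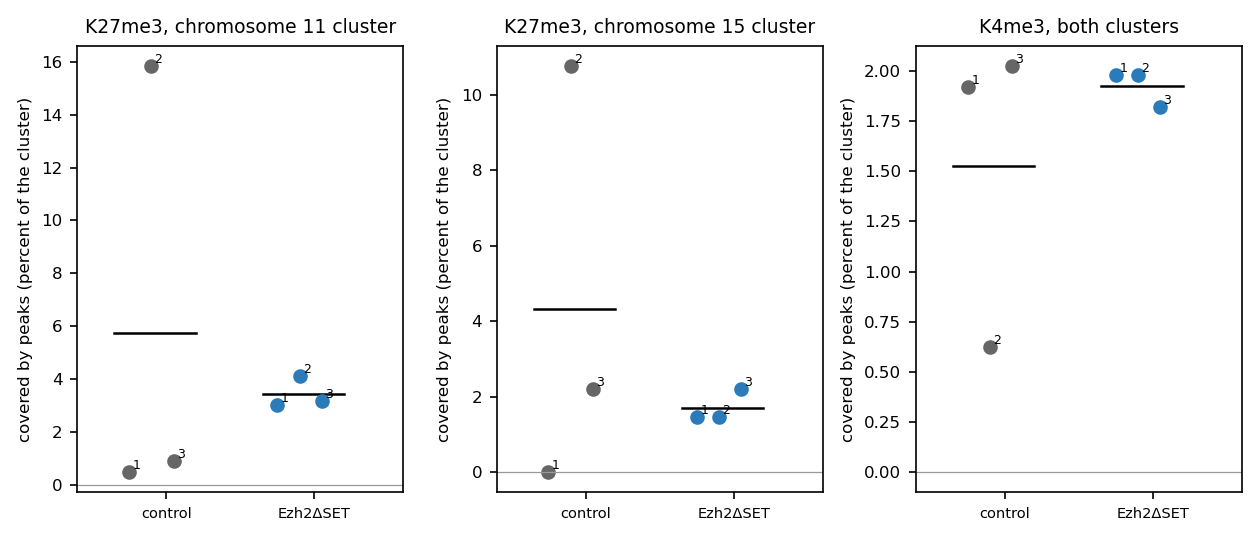
Percent of the cluster covered by peaks in each mouse (points, numbered by replicate) by genotype, with the mean of 3 mice as a black line, for K27me3 on chromosome 11 and chromosome 15 and for K4me3 on both clusters together. Control replicate 2 is the highest point for K27me3, at 15.8% and 10.8%, and the lowest for K4me3, at 0.626%.

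Within the clusters the mice differed by stretch. From Krt222 to Krt40, 310 kb on chromosome 11, K27me3 covered 0%, 40.3% and 0% in control and 2.59%, 3.22% and 0% in Ezh2ΔSET. Over the 468 kb of keratin-associated protein genes it covered 1.07%, 3.6% and 1.98% in control and 2.82%, 4.32% and 4.04% in Ezh2ΔSET. From Krt33a to Krt42 it covered 0%, 8.61% and 0% in control and 3.87%, 4.86% and 5.47% in Ezh2ΔSET. In this last stretch, which holds hair and basal keratins, control replicate 2 alone among the control mice had any K27me3, and all Ezh2ΔSET mice did.

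On chromosome 15, the 226 kb from Krt80 to Krt75 held K27me3 in Ezh2ΔSET replicate 3 only, at 2.21%. From Krt6b to Krt78, 278 kb, control mice had 0%, 7.55% and 3.19% and Ezh2ΔSET mice 3.59%, 3.59% and 1.80%. In its part from Krt72 to Krt77, 93.5 kb, coverage was 0%, 17.1% and 9.48% in control and 10.7%, 10.7% and 0% in Ezh2ΔSET, with a mouse at 0% in each genotype. From Krt8 to Krt18, the duct keratins at the end of the cluster, control replicate 2 had 46.2% and the other 5 mice 0%. The stretches were chosen with the peaks known and were not tested.

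Few K27me3 regions recurred across mice. Of 33 regions of both clusters, 21 were seen in a single mouse, and 16 of those 21 were from control replicate 2. Joined regions to which at least 3 mice contributed a peak numbered 5. The only region in all 6 mice, joined to chr11:99914309-99924808, lay among the keratin-associated protein genes. The joined region held the start of Gm11565, but the stretch common to the 6 mice, chr11:99918903-99922840, did not overlap that gene. Also among the keratin-associated protein genes, chr11:99971667-99977374 was present in 3 of 3 Ezh2ΔSET and 0 of 3 control mice and overlapped no start site. It was picked out after the peaks had been seen, and the share of such regions over the genome was not computed. On chromosome 15, the joined region chr15:101782328-101796162, which holds the start of Krt72, took a peak each from control replicate 3 and Ezh2ΔSET replicates 1 and 2, but no stretch of it was shared by 3 mice. The peaks of both Ezh2ΔSET mice did not overlap, that of replicate 2 did not reach the start of Krt72, and that of replicate 1 shared 34 bases with that of control replicate 3. The region chr15:101662578-101671467, which overlaps no start site, was present in control replicates 2 and 3 and Ezh2ΔSET replicate 3.

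K27me3 peaks over the clusters were often at the smallest width. Of the 55 peaks, 29 (52.7%) spanned 5001 bases, as did 32.3% to 45.7% of the autosomal K27me3 peaks per mouse. Control replicate 2 had 27 of the 55, with a median width of 8890 bases and 10 at the smallest width, and the other mice had 1 to 9 each. When each library was limited to its 15782 widest autosomal peaks, which is the whole autosomal list of control replicate 2 and removes 7270 to 13001 peaks from the others, members called for K27me3 were 0 and 1 in control replicates 1 and 3 and 1, 0 and 1 in Ezh2ΔSET. The 8 members of control replicate 2 stayed by construction. With these peaks, 6.61% to 10.05% of all genes were called in the other 5 mice and 21.7% in control replicate 2.

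Among the keratins with a letter in their symbol, Krt33b, a hair shaft keratin, was called for K27me3 in control replicate 2 and Ezh2ΔSET replicate 3. Of the 23 keratin-associated protein genes, 0, 3 and 0 were called for K27me3 in control and 1, 1 and 1 in Ezh2ΔSET. Of 14 genes of stratified epithelium outside the keratin family, 1, 4 and 2 were called for K27me3 in control and 2, 2 and 2 in Ezh2ΔSET, while 8, 6 and 8 and 8, 8 and 7 were called for K4me3. Trp63, the master regulator of stratified epithelium, had neither mark in any mouse, and Perp, Pkp3, Jup, Dsp, Ppl and Lor had K4me3 in 6 of 6.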

How the data were processed

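K27me3 and K4me3 ChIP-Seq of pancreatic tissue was analyzed for 6 mice, 12 libraries in all. Mice of the other genotypes are not reported here, and inputs were not analyzed here. Reads were checked with FastQC and mapped by the authors using bowtie2 (mm10), and enriched stretches were found per mouse relative to its input by the histone mode of HOMER findPeaks (versions not given in the sources used here). The deposited files hold 1 position per peak, with no height, read count or depth, and their score column is 1 for every peak. The smallest width was 5001 bp for K27me3 and 501 bp for K4me3, so narrower enrichment is missing, and a deeper library could hold more peaks.

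Peaks were compared with GENCODE vM21 protein-coding genes, and a gene counted as marked in a mouse if any of its annotated start sites had a peak within 3 kb. Covered bases were taken over each cluster. Regions join overlapping peaks over mice. Mice were grouped by the genotype label. The rule for named genes took members called in 3 of 3 mice of a genotype and 0 of 3 of the other (none), members with K4me3 in at least 3 or K27me3 in at least 5 of 6 mice (no member had the latter), and Krt1, Krt4, Krt5, Krt10, Krt12, Krt13, Krt14, Krt15, Krt17, Krt20, Krt23 and Krt80. The limits in mice were scaled to the 6 mice after the data had been seen. Other members named were chosen after their values were seen. Members and lists were chosen with earlier results of these data known.

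Covered percent was compared by two-sided exact permutation tests with Benjamini-Hochberg adjustment over 3 comparisons. Models over more genotypes were left out with those mice. The labels call the mice of a genotype biological replicates and give no batch, and p-values measure the spread between these mice. The replicate numbers share no stated origin. The code was tested on simulated peaks. Sequences came from RefSeq GRCm38.p6. Alternatives were other windows, spans and peak subsets, medians, the replicate block and each mouse left out. The software was numpy 2.4.6, scipy 1.17.1, pandas 2.3.3 and matplotlib 3.10.9 under Python 3.11.15.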

Additional observations from a re-analysis of the deposited data

How the results depend on the processing

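Of 60 values of Ezh2ΔSET minus control recomputed under alternatives set at the start, 8 changed sign, 4 of the 36 coverage comparisons and 4 of the 24 counts of members. In the coverage comparisons the exact permutation p cannot fall below 0.1 with 3 mice against 3 or 2, so no alternative could pass 0.05 and the p-values say nothing about stability. K27me3 coverage of the chromosome 11 cluster changed sign with medians in place of means (2.29 percentage points, exact permutation p = 0.4) and without control replicate 2 (2.75). That of chromosome 15 did so without this mouse (0.60), as did K4me3 coverage (-0.0477). Members with K27me3 per mouse went from -1 to 4 with a window of 100 kb upstream, to 1 with medians and to 1.5 without control replicate 2, and members with K4me3 from -0.667 to 0.333 when peaks of at least 1 kb alone were used. The cause was not tested.

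With each mouse left out in turn, coverage differences ran from -4.93 to 2.75 points for K27me3 on chromosome 11, from -4.78 to 0.60 on chromosome 15 and from -0.0477 to 0.652 for K4me3. Members marked ran from -2.5 to 1.5 for K27me3 and from -1.33 to -0.333 for K4me3. With control replicate 2 left out, alternatives added after seeing the data gave, for chromosome 11, 0.332 in the ratio to autosomal coverage (exact permutation p = 0.1), 1.95 points when libraries kept equally many wide peaks (exact permutation p = 0.2) and 2.83 without the surroundings of duct keratins (exact permutation p = 0.1). For chromosome 15 the ratio gave 0.0631 (exact permutation p = 0.8), equally many wide peaks gave -1.10 points, the direction found with all mice (exact permutation p = 0.4), and leaving out the duct keratins gave 0.68 points (exact permutation p = 0.9).

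Deviations of gene calls from the genotype mean were correlated between mice of the 2 genotypes. For K27me3 the correlations ran from -0.0814 to 0.0458 in same-numbered pairs and from -0.129 to 0.123 in the others. For K4me3 they ran from 0.0311 to 0.132 (median 0.0825) in same-numbered pairs and from -0.130 to 0.0561 (median -0.0636) in the others. With 3 same-numbered pairs per mark, these values cannot tell whether such mice share an origin. With the replicate block the differences were -2.30 points on chromosome 11 (exact permutation p = 1), -2.62 on chromosome 15 (exact permutation p = 0.75) and 0.402 for K4me3 (exact permutation p = 0.75). The smallest p that 3 pairs allow is 0.25, so no call could change under the block. Alternatives set at the start that need other genotypes were not run. Depth is unknown, and enrichment narrower than the smallest peak cannot be seen.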

Other observations

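Among genes of epidermal differentiation outside the keratin family, the marks differed from gene to gene. Lor, which encodes the cell envelope protein loricrin, had K4me3 in 6 of 6 mice and K27me3 in 5, all but control replicate 1. Flg, which encodes filaggrin, had K27me3 in 5 of 6 mice, all but control replicate 2, and K4me3 in none. Ivl, which encodes involucrin, had K4me3 in 4 mice, control replicates 1 and 3 and Ezh2ΔSET replicates 1 and 2, and K27me3 in none. Evpl, which encodes envoplakin, had K4me3 in 5 mice, while Tgm1, Sprr1a and Krtdap had neither mark in any mouse.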
